A study of Homo sapiens with 18 samples.

Results

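The dual-specificity phosphatases that switch off mitogen-activated protein (MAP) kinases, together with the Sprouty and Spred inhibitors of the same pathway, were followed as a set of 10 genes in THP-1, a human cell line derived from an acute monocytic leukaemia. The members were DUSP1, DUSP2, DUSP4, DUSP5, DUSP6, DUSP10, DUSP16, SPRY1, SPRY2 and SPRED1. They were found by matching the symbols to the Ensembl identifiers of the count table, and all 10 had a row among the 63677 genes of the table. The rule uses symbols and no measured value, although the set was proposed with earlier results of these data known.

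RNA was counted by 3′ end sequencing in 18 libraries that formed 6 groups of 3. KD cells had received an siRNA against TRAFD1 at 25 nM, SCR cells a non-targeting control siRNA at 25 nM, and WT cells no siRNA. The labels disagree on WT, since one field calls these cells untreated and the protocol gives them the transfection reagent alone. At 72 h after transfection each condition was given lipopolysaccharide (LPS) at 10 ng/ml or medium alone for 4 h. Replicates are numbered 1 to 3 without and 4 to 6 with LPS. The study asked what depletion of TRAFD1, a gene named for a TRAF-type zinc finger and known as a restraint on innate immune signalling, does to monocyte-like cells with and without LPS. All groups come from a single leukaemia line and the knockdown from a single siRNA, and the labels give triplicates without saying that they were separate cultures, so the p-values measure only the spread between these libraries.

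MAP kinases are switched on by phosphorylation of a threonine and a tyrosine in their activation loop, and the dual-specificity phosphatases remove both phosphates. Many of these phosphatases are themselves transcribed in response to MAP kinase activity, which makes them negative feedback regulators. Sprouty and Spred proteins act further upstream, between receptor tyrosine kinases, Ras and Raf. In monocytes and macrophages, LPS activates ERK, JNK and p38 through Toll-like receptor 4, and the phosphatases limit how long these kinases stay active and how much cytokine is made.

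The promoters of 3 members are shown because DUSP2 and DUSP6 rose with LPS in these cells and because DUSP1 is the textbook immediate-early member with cyclic AMP response elements (CRE). The sequences are the 250 bases before the start of each gene in the RefSeq promoter table on GRCh38.p14, read 5′ to 3′ on the minus strand, at chr5:172771196-172771445 for DUSP1, chr2:96145441-96145690 for DUSP2 and chr12:89352502-89352751 for DUSP6. Capitals mark any CRE, CRE half-site, AP-1, kB or CArG match on either strand.
DUSP1: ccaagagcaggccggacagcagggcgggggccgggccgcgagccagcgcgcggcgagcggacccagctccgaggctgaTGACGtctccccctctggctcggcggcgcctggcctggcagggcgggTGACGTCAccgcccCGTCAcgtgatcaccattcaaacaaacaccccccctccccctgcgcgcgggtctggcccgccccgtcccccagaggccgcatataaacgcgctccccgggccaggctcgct
DUSP2: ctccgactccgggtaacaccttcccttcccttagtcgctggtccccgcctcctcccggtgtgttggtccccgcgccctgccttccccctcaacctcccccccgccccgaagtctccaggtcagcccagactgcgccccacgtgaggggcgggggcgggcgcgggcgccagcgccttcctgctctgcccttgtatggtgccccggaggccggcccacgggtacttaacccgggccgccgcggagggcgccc
DUSP6: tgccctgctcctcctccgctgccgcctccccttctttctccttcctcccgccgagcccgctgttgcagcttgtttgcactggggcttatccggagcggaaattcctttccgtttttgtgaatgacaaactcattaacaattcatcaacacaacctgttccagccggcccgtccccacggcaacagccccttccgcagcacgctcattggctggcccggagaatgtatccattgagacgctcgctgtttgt

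The DUSP1 window held 1 full CRE (TGACGTCA), beginning 125 bases before the start, and 4 half-sites (TGACG), at 172, 125, 122 and 111 bases before the start, of which the pair at 125 and 122 lie inside the full element on opposite strands. DUSP2 and DUSP6 held no match to any of the motifs in capitals, and DUSP6 had 1 CCAAT box 46 bases before the start. Among 34788 distinct promoter windows of 250 bases, 1.64% held the full CRE, 21.2% the half-site, 6.59% an AP-1 site (TGANTCA), 5.21% a kB site, 1.17% a CArG box and 32% a CCAAT box. The table had 12 windows for 8 members and none for DUSP4 and DUSP5. Over the other 9 of those windows, SPRY2 held 1 CRE half-site 190 bases before a start and an ETS core (CCGGAA, in 14.5% of all windows) 142 bases before it, SPRY1 held 1 ETS core 67 bases before a start, and DUSP10 held 4 CCAAT boxes. A match is a stretch of letters and not a measured binding site.

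Each library held between 8206023 and 22344279 counts, so that 3 counts, taken here as the floor, equal 0.133 to 0.378 CPM (counts scaled to library size). Of 16678 genes that passed the filter on low counts, 8 were members. TRAFD1 itself was at 8.67 ± 3.14 CPM in KD and 23.7 ± 3.38 CPM in SCR without LPS (SD, n = 3), a log2 fold change of -1.45 with an edgeR adjusted p of 0.0277. With LPS it was at 14.5 ± 1.12 CPM in KD and 22.7 ± 4.42 CPM in SCR, a log2 fold change of -0.65 with an adjusted p of 0.262. TRAFD1 was called higher with LPS within KD (0.73, adjusted p = 0.0456), and the difference between the LPS responses of KD and SCR was 0.80 with an adjusted p of 0.612. TNF, IL1B, CXCL8 and NFKBIA rose with LPS in all 3 conditions. By edgeR, the rise of TNF and NFKBIA was called smaller in SCR than in WT, and that of TNF smaller in KD than in WT. IL1B and CXCL8 had no such call, and none of these genes was called between the LPS responses of KD and SCR. The part of these differences in the LPS responses of the members was not tested. Summed over 8 monocytic markers the group means lay between 453 and 522 CPM, FCGR1A being highest at 263 to 307 CPM and MPO lowest at 0.899 to 2.02 CPM, whereas HBB was at 0 and CD2, CD3D and CD3E did not exceed 0.0324 CPM. CD14 lay between 9.69 and 35.5 CPM and fell with LPS in WT (log2 -0.74), SCR (-1.53) and KD (-1.07; edgeR adjusted p = 0.0224, 2.31e-05 and 0.00138), and CD33 fell in KD (-0.50, edgeR adjusted p = 0.0137). The part of these markers in the LPS responses of the members was not tested. Of the markers of other cell types, KRT8 at 0.444 to 2.27 CPM and COL1A1 at 0.954 to 2.18 CPM were among those above the floor. Replicate 1 of unstimulated KD stood apart: without it the genes called over the whole table rose from 1912 to 3150 for the LPS response in KD, and from 60 to 1313 for the difference between the LPS responses of KD and WT.

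DUSP6 and DUSP4 led the set in every library. They made up 64.3% to 80.3% of the summed CPM of the 10 members, and over all 18 libraries DUSP6 averaged 70.0 CPM and DUSP4 64.4 CPM, ranks 2582 and 2804 of the 16678 genes. SPRY2 averaged 14.8 CPM, DUSP5 11.8 CPM, DUSP10 8.75 CPM and DUSP2 8.04 CPM, ranks 7428 to 9256. DUSP1 averaged 0.871 CPM, SPRED1 0.441 CPM, DUSP16 0.430 CPM and SPRY1 0.400 CPM. These levels are set beside each other because the counts were taken over the last 500 bases of every gene, a window of equal length. The methods of the study word the window as the last 5′ 500 bases, taken here as the gene end. Transcripts that end elsewhere are missed, which limits the comparison. In GENCODE, 1 of 2 DUSP4 transcripts and 1 of 5 DUSP6 transcripts end in the last 500 bases of the gene. For DUSP16 it is 1 of 6, for SPRED1 1 of 3 and for SPRY1 5 of 9. The counts used an Ensembl annotation, so the windows counted may differ from these. In bulk RNA, fewer cells with a transcript and less transcript per cell cannot be told apart.

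The order of the members depended on the group. Without LPS the libraries of WT had DUSP6, DUSP4, SPRY2 and DUSP5 in descending order with no overlap between neighbours. DUSP6 and DUSP4 overlapped in WT with LPS, in SCR in both states and in KD without LPS, and in KD with LPS every DUSP4 value exceeded every DUSP6 value. Behind these leaders came SPRY2 in the 3 unstimulated groups and in WT with LPS, DUSP2 in SCR with LPS and DUSP5 in KD with LPS. In SCR with LPS the neighbours from DUSP2 through DUSP5 and SPRY2 to DUSP10 all overlapped.

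The summed level of the 10 members was higher with LPS in each condition. It was 123 ± 15.0 CPM without and 181 ± 13.0 CPM with LPS in WT, 151 ± 14.8 and 249 ± 27.3 CPM in SCR, and 145 ± 12.3 and 230 ± 2.12 CPM in KD (SD, n = 3). The 2 states did not overlap in any condition.

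**Figure D1:**
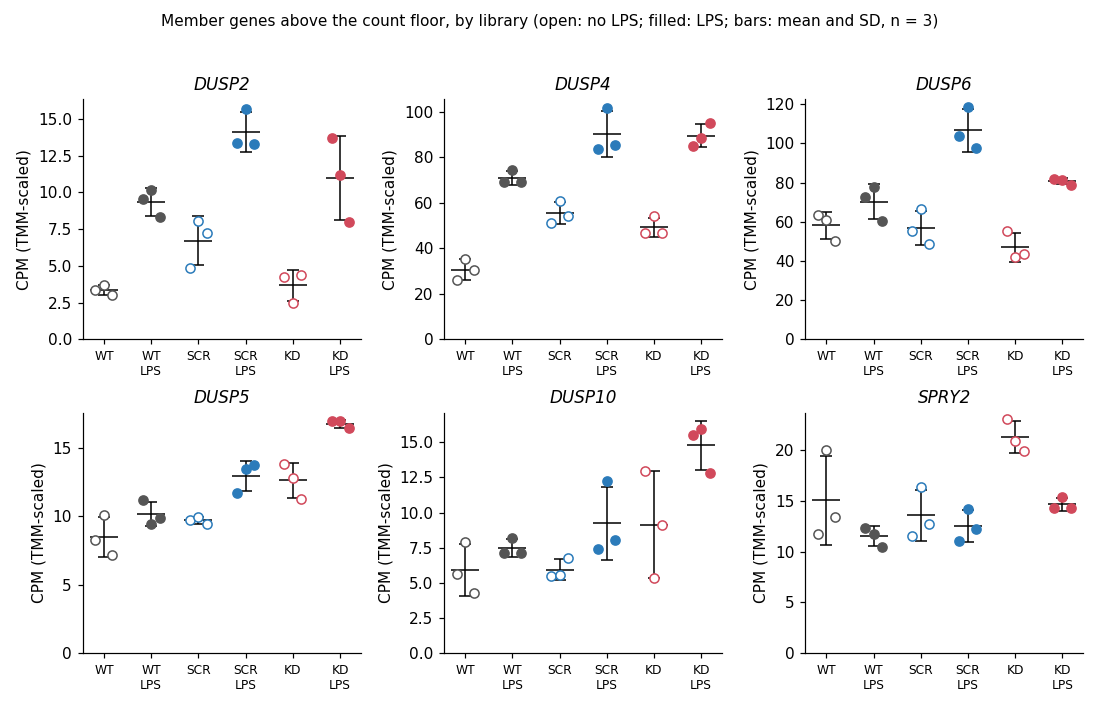
Normalised read counts (CPM, linear axes from 0) of the 6 members above the floor in each of the 18 libraries. Open points are libraries without LPS, filled points libraries with LPS, and bars the mean and SD of 3. DUSP4 and DUSP2 with LPS lie above their unstimulated libraries in WT, SCR and KD, while DUSP6 does so in SCR and KD and overlaps in WT.

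LPS raised the nuclear phosphatases DUSP2 and DUSP4 in all 3 conditions and the cytoplasmic ERK phosphatase DUSP6 in SCR and KD. Of the 8 members tested, 2 rose in WT, where 7.01% of all genes tested rose, 3 rose in SCR, where 8.64% did, and 3 rose in KD, where 6.41% did, and no member fell, where 7.26%, 8.56% and 5.05% of all genes did. The median log2 fold change of the 8 members was 0.32 in WT, 0.68 in SCR and 0.73 in KD, against -0.030, -0.027 and -0.0029 over all genes. Groups that did not overlap and were higher with LPS numbered 2 members in WT (15% of all genes), 5 in SCR (17.5%) and 4 in KD (12.8%), and 1 member was lower without overlap in KD (12.7%).

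DUSP2, a nuclear phosphatase found mainly in blood cells, had the largest LPS response of the members above the floor. In WT it stood at 3.33, 3.72 and 3.02 CPM without LPS and at 9.53, 10.2 and 8.32 CPM with LPS. In SCR the values were 4.84, 8.04 and 7.24 CPM without and 13.4, 15.7 and 13.3 CPM with LPS. In KD they were 4.23, 2.48 and 4.35 CPM without and 13.7, 11.2 and 8.0 CPM with LPS. Every stimulated library exceeded every unstimulated library of its condition. DUSP2 rose 2.80-fold in WT (log2 1.49 ± 0.25 SE, adjusted p = 0.000186), 2.14-fold in SCR (1.09 ± 0.23, adjusted p = 0.00231) and 2.95-fold in KD (1.56 ± 0.24, adjusted p = 0.000158), by edgeR's quasi-likelihood test with Benjamini-Hochberg adjustment over all genes.

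DUSP4, a nuclear phosphatase acting on ERK, JNK and p38, stood in WT at 26.1, 35.5 and 30.5 CPM without LPS and at 69.2, 74.6 and 69.1 CPM with LPS. In SCR it was at 51.4, 60.9 and 54.4 CPM without and 83.7, 102 and 85.3 CPM with LPS. In KD it was at 46.7, 54.2 and 46.9 CPM without and 85.1, 88.4 and 95.3 CPM with LPS. The states were separate in all 3 conditions, and the unstimulated WT libraries lay below all others. DUSP4 rose 2.32-fold in WT (log2 1.21 ± 0.12, edgeR adjusted p = 1.99e-07), 1.63-fold in SCR (0.70 ± 0.12, adjusted p = 0.000243) and 1.82-fold in KD (0.86 ± 0.12, adjusted p = 2.92e-05).

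DUSP6, the cytoplasmic phosphatase specific for ERK, was at 63.3, 60.9 and 50.4 CPM in WT without LPS and at 72.7, 77.7 and 60.3 CPM with LPS. SCR had 55.6, 66.3 and 48.8 CPM without and 104, 119 and 97.6 CPM with LPS. KD had 55.5, 42.1 and 43.5 CPM without and 81.9, 81.4 and 79.0 CPM with LPS. The states overlapped in WT and were separate in SCR and KD. DUSP6 rose 1.88-fold in SCR (log2 0.91 ± 0.13, edgeR adjusted p = 6.84e-05) and 1.71-fold in KD (0.78 ± 0.14, adjusted p = 0.000538), whereas the value in WT was 0.27 ± 0.13 with an adjusted p of 0.200. All 8 of these calls, for DUSP2, DUSP4 and DUSP6, held without any single library of the groups compared, but under the threshold used in the study (absolute log2 fold change over 1 and adjusted p of 0.01 or less) DUSP4 and DUSP6 were no longer called in SCR and KD, leaving DUSP2.

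DUSP5, a nuclear phosphatase specific for ERK, moved less. It was at 8.25, 10.1 and 7.16 CPM in WT without LPS and at 11.2, 9.44 and 9.89 CPM with LPS. SCR had 9.73, 9.96 and 9.47 CPM without and 11.7, 13.5 and 13.7 CPM with LPS, and KD had 13.8, 12.8 and 11.3 CPM without and 17.0, 17.0 and 16.5 CPM with LPS. The states overlapped in WT only, yet no response was called: log2 fold changes were 0.27, 0.42 and 0.41 in WT, SCR and KD, with edgeR adjusted p of 0.284, 0.0621 and 0.0822.

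DUSP10, which acts on JNK and p38, was at 5.60, 7.90 and 4.27 CPM in WT without LPS and at 7.10, 8.19 and 7.15 CPM with LPS. SCR had 5.47, 5.57 and 6.78 CPM without and 7.44, 12.2 and 8.08 CPM with LPS. KD had 13.0, 5.37 and 9.10 CPM without and 15.6, 16.0 and 12.8 CPM with LPS, so that a single unstimulated KD library, replicate 1, reached into the stimulated range. The log2 fold changes were 0.36, 0.65 and 0.68, with edgeR adjusted p of 0.441, 0.106 and 0.0956. Without that KD library the response in KD was 1.03 with an adjusted p of 0.00932, and it was also called when no filter on low counts was applied (adjusted p = 0.0456).

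SPRY2, an inhibitor of receptor tyrosine kinase signalling to Ras and ERK, had negative fold changes. In WT it was at 11.8, 20.1 and 13.5 CPM without LPS and at 12.4, 11.8 and 10.5 CPM with LPS. In SCR it was at 11.6, 16.4 and 12.8 CPM without and 11.1, 14.2 and 12.3 CPM with LPS. In KD it was at 23.1, 20.9 and 19.98 CPM without and 14.3, 15.4 and 14.3 CPM with LPS. The states were separate in KD only. The log2 fold changes were -0.37, -0.10 and -0.54 in WT, SCR and KD, with edgeR adjusted p of 0.197, 0.765 and 0.0544, and the last of these was called by DESeq2 (adjusted p = 0.0381) and with the size factors of DESeq2 in edgeR (adjusted p = 0.0487).

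**Figure D2:**
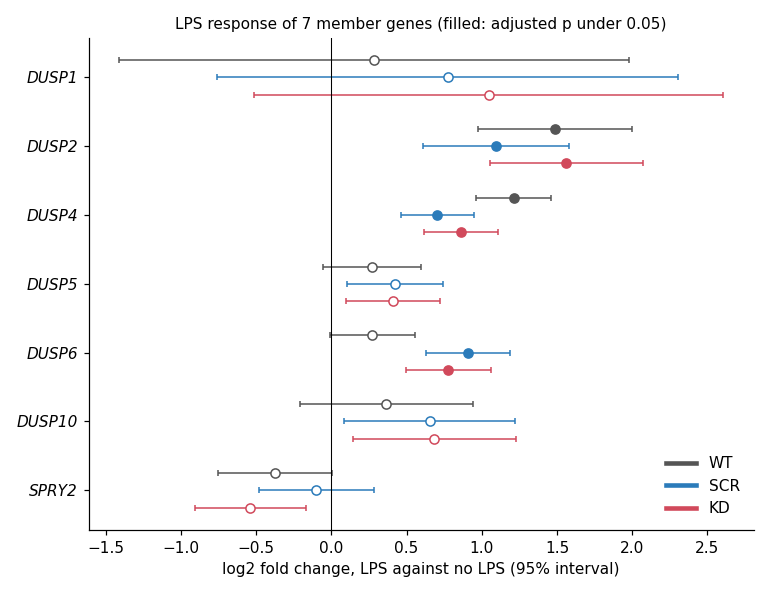
LPS response of 7 members as log2 fold change, stimulated against unstimulated, with 95% intervals, for WT, SCR and KD. Filled points passed an adjusted p of 0.05. DUSP2 and DUSP4 are filled in all 3 conditions and DUSP6 in SCR and KD, SPRY2 lies left of 0 in each condition, and the intervals of DUSP1 are widest.

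Whether the LPS responses themselves differed between conditions was tested by interaction terms, and no member was called. Between SCR and WT, 2 members had an unadjusted p under 0.05 (9.96% of all genes), with 0.234% of all genes called in either direction. The response of DUSP6 was larger in SCR by 0.64 ± 0.19 on the log2 scale (unadjusted p = 0.00305, edgeR adjusted p = 0.300), and that of DUSP4 differed by -0.51 ± 0.17 (unadjusted p = 0.00593, adjusted p = 0.353). Between KD and WT DUSP6 and DUSP4 again had an unadjusted p under 0.05 (15.5% of all genes), with 0.36% of all genes called: 0.50 ± 0.19 for DUSP6 (adjusted p = 0.227) and -0.35 ± 0.17 for DUSP4 (adjusted p = 0.314). These comparisons share the WT libraries. Without replicate 1 of unstimulated KD, the DUSP6 difference between KD and WT was 0.64 with an adjusted p of 0.0365. DESeq2 called no member in any of the 3 interactions. The DUSP6 response is therefore called in SCR and KD and not in WT without the difference itself having passed the test.

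Between KD and SCR the LPS responses of the members gave an unadjusted p under 0.05 for 0 of 8 members (7.64% of all genes), and 0% of all genes were called. The differences, KD minus SCR, were 0.47 for DUSP2 (95% interval -0.23 to 1.16), 0.16 for DUSP4 (-0.18 to 0.50), -0.13 for DUSP6 (-0.53 to 0.26), -0.014 for DUSP5 (-0.46 to 0.43), 0.031 for DUSP10 (-0.76 to 0.82) and -0.44 for SPRY2 (-0.97 to 0.092). Differences of either sign lie inside each of these intervals.

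TRAFD1 depletion was compared with the control siRNA in each state, and edgeR called none of the 8 members. Without LPS 0.066% of all genes were called and 4 members had an unadjusted p under 0.05 (12.6% of all genes), and with LPS 0% of all genes were called and 3 members had an unadjusted p under 0.05 (11.8% of all genes). DESeq2 called 1 member without LPS, SPRY2, and 0 with LPS. The median log2 fold change of the members was -0.21 without and 0.13 with LPS, against -0.0086 and 0.016 over all genes. These medians include DUSP1 and SPRY1, both near the floor, whose estimates were negative without and positive with LPS. In both states the estimates of DUSP5, DUSP10 and SPRY2 were positive and those of DUSP2, DUSP4 and DUSP6 negative. These comparisons and those of SCR against WT share the SCR libraries.

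SPRY2 and DUSP2 had the smallest p-values without LPS, in opposite directions. All 3 KD values of SPRY2 lay above all 3 of SCR, means of 21.3 ± 1.60 and 13.6 ± 2.47 CPM, a log2 fold change of 0.66 ± 0.18 (edgeR adjusted p = 0.106). DESeq2 gave SPRY2 0.67 with an adjusted p of 0.0276. DUSP2 lay lower in KD without overlap, at 3.69 ± 1.05 against 6.71 ± 1.66 CPM, a log2 fold change of -0.84 ± 0.25 (adjusted p = 0.152). With LPS the values of SPRY2 were 0.22 ± 0.18 (adjusted p = 0.648) and of DUSP2 -0.37 ± 0.23 (adjusted p = 0.536).

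DUSP5 and DUSP10 had log2 fold changes of like size in both states. DUSP5 was 0.38 without LPS (edgeR adjusted p = 0.296) and 0.37 with LPS (adjusted p = 0.346), and every KD library exceeded every SCR library in both states. DUSP10 was 0.63 (adjusted p = 0.331) and 0.66 (adjusted p = 0.330), the libraries being separate with LPS only. DUSP6 gave -0.27 (adjusted p = 0.416) without LPS and -0.40 (adjusted p = 0.246) with LPS, where the KD values of 79.0 to 81.9 CPM all lay below the SCR values of 97.6 to 119 CPM. DUSP4 gave -0.17 (95% interval -0.42 to 0.073) and -0.013 (-0.25 to 0.23). Counting groups that did not overlap, 2 members were higher and 1 lower without LPS, where 6.45% and 8.63% of all genes were, and 3 were higher and 1 lower with LPS, where 10.8% and 10.7% were.

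**Figure D3:**
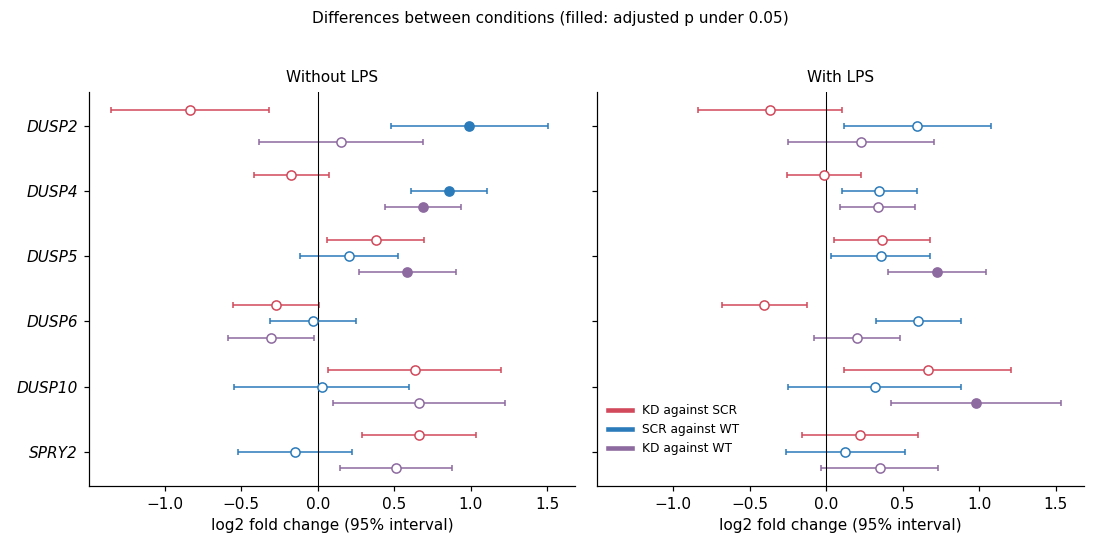
Differences between conditions of 6 members as log2 fold change with 95% intervals, without LPS on the left and with LPS on the right. Filled points passed an adjusted p of 0.05. The filled points are DUSP2 and DUSP4 in SCR against WT and DUSP4 and DUSP5 in KD against WT without LPS, and DUSP5 and DUSP10 in KD against WT with LPS, and no KD against SCR point is filled.

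Both siRNA conditions were also compared with WT. SCR against WT covers the control siRNA and, if the WT cells were untreated, the transfection as well, and the labels do not separate these. Without LPS, 2 of 8 members were higher in SCR, where 1.78% of all genes were. DUSP4 was at 55.6 ± 4.89 CPM in SCR and 30.7 ± 4.70 CPM in WT, 1.81-fold higher (log2 0.86 ± 0.12, edgeR adjusted p = 0.000349), and DUSP2 at 6.71 ± 1.66 and 3.36 ± 0.350 CPM, 1.98-fold higher (0.99 ± 0.25, adjusted p = 0.0297). DUSP4 kept its call without any single library, whereas DUSP2 lost it without replicate 1 or 3 of WT (adjusted p = 0.0873 and 0.126), without replicate 2 or 3 of SCR (adjusted p = 0.108 and 0.0993), and when only the libraries of the contrast were fitted (adjusted p = 0.0588). DUSP6 and DUSP10 differed by -0.033 (95% interval -0.31 to 0.25) and 0.026 (-0.55 to 0.60). TNF at 1.46, EGR1 at 1.20 and CD14 at 1.14 on the log2 scale also rose in SCR without LPS, and their part in the member differences was not tested.

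With LPS no member was called between SCR and WT by edgeR, where 0.024% of all genes were higher and 0.114% were called in either direction, although 4 members had an unadjusted p under 0.05 (13.7% of all genes) and 4 were higher without overlap (10.6% of all genes). DUSP6 was at 107 ± 10.9 CPM in SCR and 70.2 ± 8.94 CPM in WT (log2 0.60 ± 0.13, adjusted p = 0.0770). DESeq2 called DUSP6 (adjusted p = 0.00354), as did edgeR with no filter on low counts (adjusted p = 0.000575). The libraries of these groups with the same replicate number deviated together, with correlations of 0.223, 0.366 and 0.480, and with the replicate number as a block DUSP6 was called as well, at 0.61 with an adjusted p of 0.0179. The values of DUSP2, DUSP5 and DUSP4 were 0.60, 0.36 and 0.35 (adjusted p = 0.267, 0.316 and 0.221).

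Against WT, KD cells were higher in DUSP4 and DUSP5 without LPS and in DUSP5 and DUSP10 with LPS. The 2 members called without LPS stand beside 5.85% of all genes called higher, and the 2 called with LPS beside 6.29%. DUSP4 was at 49.3 ± 4.27 CPM in unstimulated KD, 1.61-fold above WT (log2 0.69 ± 0.12, edgeR adjusted p = 0.000874), and DUSP5 at 12.6 ± 1.29 against 8.50 ± 1.48 CPM, 1.50-fold above (0.59 ± 0.15, adjusted p = 0.0160). With LPS, DUSP5 was at 16.8 ± 0.292 against 10.2 ± 0.907 CPM, 1.65-fold above WT (0.72 ± 0.15, adjusted p = 0.00673), and DUSP10 at 14.8 ± 1.72 against 7.48 ± 0.614 CPM, 1.97-fold above (0.98 ± 0.27, adjusted p = 0.0232). SPRY2 without LPS gave 0.51 ± 0.18 (adjusted p = 0.0651) and DUSP4 with LPS 0.34 ± 0.12 (adjusted p = 0.0673). TRAFD1 itself differed from WT by -1.23 on the log2 scale in unstimulated KD (adjusted p = 0.00156), where TNF (1.45), CXCL8 (1.82) and CD14 (0.72) were called higher. With LPS, TRAFD1 gave -0.23 with an adjusted p of 0.563, and NFKBIA was lower (-0.30, adjusted p = 0.0334). The part of these genes in the member differences was not tested. KD and SCR both differ from WT by having received an siRNA and, if the WT cells were untreated, by the transfection. By this comparison alone, TRAFD1 depletion cannot be told apart from these.

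Some of these calls rested on single libraries. DUSP5 without LPS lost its call without replicate 1 or 3 of WT (adjusted p = 0.0576 and 0.109), without replicate 1 of KD (adjusted p = 0.0558), with no filter on low counts (adjusted p = 0.0866) and with only the libraries of the contrast (adjusted p = 0.140). DUSP10 with LPS lost it without replicate 4 or 6 of WT (adjusted p = 0.0723 and 0.102) and without replicate 4 or 5 of KD (adjusted p = 0.0620 and 0.0842). DUSP4 without LPS stood at an adjusted p of 0.0501 when only the libraries of the contrast were fitted, and DUSP5 with LPS kept its call without any single library. Without replicate 1 of unstimulated KD, DUSP6 was called lower in KD than in WT (log2 -0.44, adjusted p = 0.0437). Without replicate 2 of unstimulated KD, DUSP10 was called higher (0.92, adjusted p = 0.0215), and without replicate 2 of unstimulated WT so was SPRY2 (0.75, adjusted p = 0.00643).

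By group means, DUSP2 and DUSP4 shared an order of the 6 groups and DUSP5 and DUSP10 shared another, while DUSP6 and SPRY2 each had their own. DUSP4 was lowest in unstimulated WT, overlapped between unstimulated KD and SCR, was higher in WT with LPS and highest in KD and SCR with LPS, which overlapped. For DUSP6, neighbouring groups overlapped from unstimulated KD through unstimulated SCR and WT to WT with LPS, and the level then stepped up without overlap to KD and to SCR with LPS. Unstimulated KD, at 42.1 to 55.5 CPM, nevertheless lay wholly below WT with LPS, at 60.3 to 77.7 CPM. DUSP5 was highest in KD with LPS and DUSP10 likewise, each without overlap with the group below, SCR with LPS. DUSP2 was lowest in unstimulated WT and KD, which overlapped, and highest in SCR with LPS, which overlapped KD with LPS. SPRY2 was highest in unstimulated KD, although unstimulated WT reached into its range. The highest group mean was 4.20 times the lowest for DUSP2, 2.94 times for DUSP4, 2.49 times for DUSP10, 2.27 times for DUSP6, 1.98 times for DUSP5 and 1.85 times for SPRY2.

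The balance of the leading pair, counted within each library and thus free of any scaling between libraries, was lowest in unstimulated WT. There DUSP4 had 0.413, 0.583 and 0.605 counts per DUSP6 count, and with LPS 0.952, 0.960 and 1.15. SCR had 0.925, 0.919 and 1.11 without and 0.807, 0.858 and 0.874 with LPS, and KD had 0.842, 1.29 and 1.08 without and 1.04, 1.09 and 1.21 with LPS. Unstimulated WT thus lay below all 15 other libraries, the LPS libraries were higher in WT and lower in SCR without overlap, and the states overlapped in KD. The ratio of DUSP5, specific for ERK, to SPRY2 was higher with LPS in each condition without overlap, with group means of 0.579 and 0.884 in WT, 0.730 and 1.04 in SCR, and 0.592 and 1.14 in KD. The ratios were formed after the values were seen and were not tested.

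**Figure D4:**
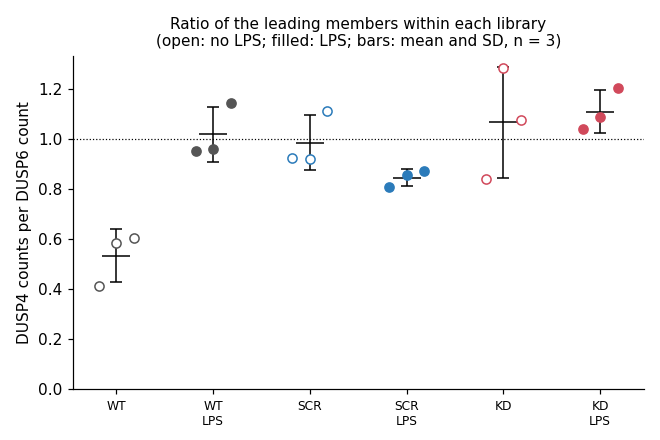
DUSP4 counts per DUSP6 count within each of the 18 libraries, on a linear axis from 0. Open points are libraries without LPS, filled points libraries with LPS, bars the mean and SD of 3, and the dotted line equal counts. The 3 unstimulated WT libraries, at 0.413 to 0.605, lie below all others.

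DUSP1, DUSP16, SPRY1 and SPRED1 were counted at or near the floor. DUSP1, the immediate-early nuclear phosphatase that favours p38 and JNK, had 1 to 35 counts per library. In WT these were 17, 3 and 6 without and 3, 6 and 11 with LPS, in SCR 17, 1 and 19 without and 7, 32 and 12 with LPS, and in KD 7, 10 and 9 without and 4, 35 and 21 with LPS. The states overlapped in every condition, and the log2 fold changes of 0.28, 0.77 and 1.05 had edgeR adjusted p of 0.868, 0.529 and 0.400 with standard errors of 0.82, 0.74 and 0.75. The 95% intervals were -1.41 to 1.98, -0.76 to 2.31 and -0.51 to 2.60. Each holds both 0 and the DUSP2 value of the same condition. DUSP1 has a single annotated transcript in GENCODE, so that its end is the gene end by construction. This cannot show that no DUSP1 transcripts ending elsewhere were missed, and the counts used an Ensembl annotation.

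The other 3 low members each had 2 libraries with no count. DUSP16, a phosphatase of JNK and p38, had 0 to 16 counts and SPRED1, which recruits neurofibromin to Ras, 0 to 43, and both were removed by the filter on low counts. SPRY1 had 0 to 27 counts, passed the filter at rank 16581 and was called in no comparison, and no fold is given for it. A single library, replicate 1 of unstimulated SCR, held the highest SPRED1 count of 43 and the highest SPRY1 count of 27, where the other libraries of that group had 0 and 4 for SPRED1 and 7 and 3 for SPRY1. The same library was unremarkable in DUSP1, at 17 counts, and held 12 counts of DUSP16. It was also the deepest of all, at 22344279 counts. Scaled for depth, its SPRED1 was still the highest at 1.91 CPM, whereas its SPRY1 of 1.20 CPM lay below the 1.31 CPM of replicate 4 of KD with LPS.

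**Figure D5:**
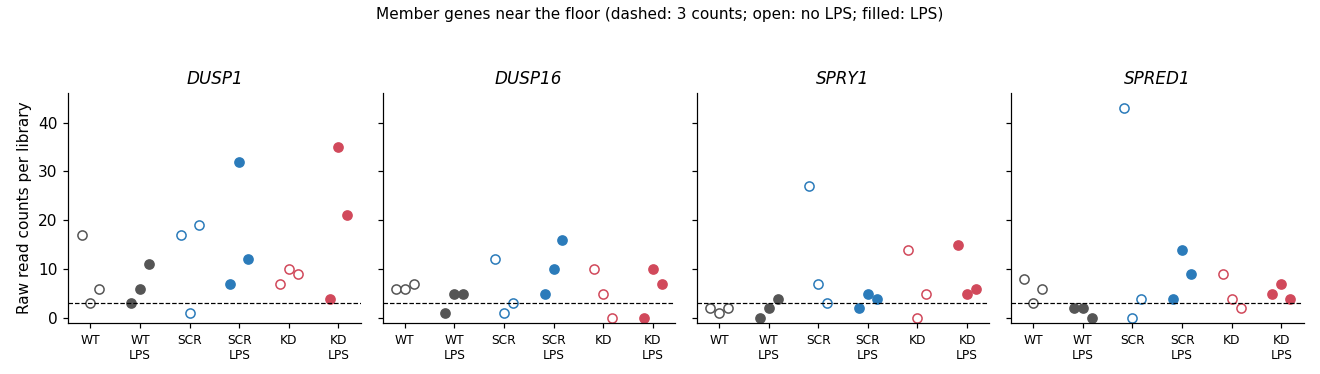
Raw read counts per library of the 4 members near the floor, without scaling for depth. Open points are libraries without LPS, filled points libraries with LPS, and the dashed line 3 counts. Most points lie under 20 counts, and replicate 1 of unstimulated SCR, the deepest library, stands out in raw counts at 43 for SPRED1 and 27 for SPRY1.

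The members were placed on GRCh37 by the GENCODE annotation. DUSP4 (ENSG00000120875) lies on the minus strand of chromosome 8 from 29190581 to 29208201, DUSP6 (ENSG00000139318) on the minus strand of chromosome 12 from 89741012 to 89746278, and DUSP2 (ENSG00000158050) on the minus strand of chromosome 2 from 96808908 to 96811179. DUSP5 (ENSG00000138166) lies on the plus strand of chromosome 10 from 112257665 to 112271291, DUSP10 (ENSG00000143507) on the minus strand of chromosome 1 from 221874766 to 221915431, and SPRY2 (ENSG00000136158) on the minus strand of chromosome 13 from 80910111 to 80915261. DUSP1 (ENSG00000120129) lies on the minus strand of chromosome 5 from 172195099 to 172198198 and SPRY1 (ENSG00000164056) on the plus strand of chromosome 4 from 124317950 to 124324915. DUSP16 (ENSG00000111266) lies on the minus strand of chromosome 12 from 12626216 to 12715797 and SPRED1 (ENSG00000166068) on the plus strand of chromosome 15 from 38545037 to 38649450. The signal of each gene is the last 500 bases at its 3′ end, so the exons upstream were not measured.

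The other genes of the pathway were counted in 6 lists, to be read against the shares of all genes that rose or fell, 7.01% and 7.26% in WT, 8.64% and 8.56% in SCR, and 6.41% and 5.05% in KD. Of 7 other dual-specificity phosphatases with a row in the fit, DUSP8 rose in WT (log2 1.26) and DUSP3 rose in SCR. DUSP9 (-0.53) and DUSP19 (-1.64) fell in SCR and DUSP22 fell in KD. That is 1 higher and 0 lower in WT, 1 and 2 in SCR, and 0 and 1 in KD. Of the other Sprouty and Spred genes 2 of 4 were tested, SPRY3 and SPRED2, and neither was called with LPS in any condition, whereas SPRED2 was 1.01 log2 units higher in KD than in WT with LPS (edgeR adjusted p = 0.00784). Of 9 MAP kinase genes tested, MAPK14, which encodes p38 alpha, fell in WT (-0.33, adjusted p = 0.0121) and MAPK12, which encodes p38 gamma, in KD (-0.62, adjusted p = 0.00558).

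Among 18 upstream kinases, 2 rose and 3 fell in WT, 4 rose and 1 fell in SCR, and 2 rose and 2 fell in KD. MAP3K8, the kinase that links Toll-like receptors to ERK, rose by 1.49, 1.48 and 1.34 log2 units in WT, SCR and KD (largest edgeR adjusted p = 5.92e-05). MAP3K3 fell by 0.89, 0.51 and 0.50, and MAP2K3, an activator of p38, rose in SCR (0.56) and KD (0.94) and gave 0.35 with an adjusted p of 0.0764 in WT. No effector kinase rose of the 10 tested: 3 fell in WT, 2 in SCR and 3 in KD. RPS6KA2, a ribosomal S6 kinase activated by ERK, fell by 0.85, 0.88 and 0.86, and MKNK2, which phosphorylates a translation initiation factor, fell by 0.58, 0.62 and 0.60 log2 units. RPS6KA5, a kinase that phosphorylates histone H3 and CREB, fell in WT (-1.36, adjusted p = 0.0137).

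Genes known as transcriptional output of ERK split in direction. Of 10 tested, 4 rose and 1 fell in WT, 3 rose and 1 fell in SCR, and 4 rose and 2 fell in KD. IER3, an early response gene, rose by 4.84, 3.42 and 3.24 log2 units in WT, SCR and KD, and CCND1, which encodes cyclin D1, by 1.67, 1.10 and 1.21. ETV5, an ETS factor, fell by 0.67, 1.12 and 0.94. In KD against SCR no gene of these 6 lists was called in either state. In SCR against WT without LPS, EGR1 (1.20) and IER3 (1.39) were called higher and no gene of the other 5 lists was called, and with LPS none of the 6 lists had a call. In KD against WT without LPS, EGR1 (1.24), IER3 (1.03) and DUSP8 (1.27) were higher and MAPK14, MAP2K3, MAP3K3 and MKNK1 were lower. With LPS, genes higher in KD included SPRED2, MAP2K1 (1.67), MYC and FOS, and DUSP9, DUSP22, RPS6KA1, MAPKAPK2 and MKNK1 were lower.

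For each of the 6 members above the floor the 2 genes with the most alike pattern were the ones with the smallest root mean square difference of centred group means of log2 CPM over the 6 groups, a measure over 6 points that share libraries. For DUSP4, whose group means spanned 1.55 log2 units, they were MIR155HG, the host transcript of miR-155 (difference 0.0708), and JUN, a subunit of AP-1 (0.0935). For DUSP2, spanning 1.92, they were HTRA3 (0.139) and NEU3 (0.175). For DUSP10, spanning 1.28, they were TAF13 (0.0815) and ANXA5 (0.0869). For DUSP6, spanning 1.18, they were ENSG00000234241 (0.0707) and SERBP1P1 (0.0723), and for DUSP5, spanning 0.956, RPS25 (0.0557) and HMGN1P35 (0.0591). SPRY2, spanning 0.859, was nearest to ACTMAP (0.0540) and AGBL5 (0.0587). No like genes are given for DUSP1 and SPRY1, whose group means rest on a few counts. Pseudogenes such as SERBP1P1 and HMGN1P35 share sequence with their parent genes, so their counts are uncertain.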

How the data were processed

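Libraries were made from total RNA with a QuantSeq 3′ kit. Per the labels and the methods of the study, the authors trimmed reads, aligned them with HISAT to GRCh37, and deposited raw counts per gene from featureCounts over the last 500 bases of each Ensembl gene, with replicates kept apart. The 18 columns of the table were all used. From the counts, CPM with TMM scaling, log2 fold changes and p-values were computed with edgeR 4.0.16 (limma 3.58.1, R 4.3.3): filterByExpr by group, glmQLFit with 1 mean per group over all 18 libraries, and glmQLFTest for 12 contrasts, adjusted by the Benjamini-Hochberg method over 16678 genes with a threshold of 0.05. Standard errors were derived from the log2 fold change and its F statistic. Symbols came from a table of gene names, which matched 55665 of 63677 identifiers, and DUSP14 was not matched. No pair of replicates agreed within sampling noise (chi-square per degree of freedom 5.29 to 36.2). Same-numbered libraries of different conditions in the same state deviated together in 1 of 6 pairs of groups, SCR and WT with LPS. Alternatives were DESeq2 1.42.0, its size factors in edgeR, no filter, the replicate number as a block, only the libraries of a contrast, the threshold of the study, and each library left out. The pipeline was tested on simulated data. The members, the gene lists and the tests were chosen with earlier results of these data known. Beside the members, the text names TRAFD1, 4 LPS label checks, cell type markers and, in each pathway list, up to 3 genes called in the most LPS responses (ties by adjusted p), and any other gene of a list was named after its values were seen. The floor of 3 counts covers counting error only, and the replicates spread beyond it. Values of some listed genes are not reported here.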

Additional observations from a re-analysis of the deposited data

How the results depend on the processing

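Of the 8 LPS calls, those for DUSP2, DUSP4 and DUSP6, all held under DESeq2, its size factors, no filter and the libraries of the contrast alone. Under the threshold of the study the members called fell to 1 (DUSP2) for the LPS response in SCR and in KD, and to 0 for SCR against WT without LPS and for KD against WT in both states. With the libraries of the contrast alone the count was 1 for SCR against WT and 0 for KD against WT, both without LPS, and 3 for KD against WT with LPS, where DUSP4 was gained (adjusted p = 0.0205). Over all genes that setting called 3235 for KD against WT with LPS, where the main fit called 1808. For SCR against WT without LPS it called 409, where the main fit called 538. With no filter the count of members was 1 for SCR against WT with LPS and 1 for KD against WT without LPS. DESeq2 and the replicate block each gave 1 for KD against SCR without LPS (SPRY2) and 1 for SCR against WT with LPS (DUSP6). Leaving out 1 library at a time gave 2 to 2, 3 to 3 and 3 to 4 members for the LPS responses in WT, SCR and KD, 0 to 0 for KD against SCR in both states, 1 to 2 and 0 to 0 for SCR against WT without and with LPS, 1 to 3 and 1 to 2 for KD against WT, and 0 to 0, 0 to 0 and 0 to 1 for the interactions of KD with SCR, SCR with WT and KD with WT. Over all genes these leave-out fits called 1682 to 2095, 1789 to 2376 and 1098 to 3150 for the 3 LPS responses. Without and with LPS, they called 1 to 52 and 0 to 0 for KD against SCR, and 193 to 510 and 0 to 14 for SCR against WT. KD against WT had 962 to 1934 without and 376 to 1428 with LPS. The interactions had 0 to 0 for KD with SCR, 17 to 91 for SCR with WT and 21 to 1313 for KD with WT. The cause of these changes was not tested.

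The replicate number as a block changed 4 member calls and lost 0. The gained calls were SPRY2 in KD against SCR without LPS (0.68, adjusted p = 0.0479) and in KD against WT without LPS (0.54, adjusted p = 0.0290), DUSP4 in KD against WT with LPS (0.34, adjusted p = 0.0210), and DUSP6 as reported. Over all genes the block called 2423 for KD against WT without LPS and 2566 with LPS, where the main fit called 1951 and 1808. Same-numbered libraries correlated between -0.179 and 0.610, and 11 of 18 library pairs correlated best with their own number. No paired analysis was possible because the LPS and unstimulated groups share no replicate number, for the 3 LPS responses.

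Over all genes, KD against SCR called 11 without and 0 with LPS in edgeR, 262 and 167 in DESeq2, 183 and 85 with the block and 320 and 425 with no filter. SCR against WT with LPS called 19, and 203, 135 and 593 under those settings. KD against WT without LPS called 1951, and 280 with the libraries of the contrast alone. The threshold of the study cut the LPS calls from 2380, 2869 and 1912 to 499, 548 and 344.

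Signs turned only for member differences that were not called. With the block DUSP1 gave -0.070 in KD against SCR with LPS and -0.042 in the interaction of KD with SCR. Leaving out 1 library, DUSP1 ranged from -0.33 to 1.18 for the LPS response in WT, from -0.71 to 0.48 and from -0.43 to 0.66 for KD against SCR without and with LPS, from -0.11 to 1.51 for SCR against WT without LPS, and from -0.45 to 0.90, -0.40 to 1.21 and -0.13 to 1.37 for the interactions of KD with SCR, SCR with WT and KD with WT. SPRY2 ranged from -0.21 to 0.051 for the LPS response in SCR and from -0.30 to 0.094 for SCR against WT without LPS. DUSP4 ranged from -0.063 to 0.084 for KD against SCR with LPS, and for SCR against WT without LPS DUSP6 ranged from -0.15 to 0.066 and DUSP10 from -0.17 to 0.27. In the interaction of KD with SCR, DUSP5 ranged from -0.090 to 0.057, DUSP6 from -0.25 to 0.0046 and DUSP10 from -0.24 to 0.37, and in that of KD with WT DUSP2 ranged from -0.14 to 0.26. DUSP1, DUSP16, SPRY1 and SPRED1 stood at 0 to 43 counts per library. The parts of depth and of the spread between replicates in their uncertainty were not tested.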
